A study of Mus musculus with 8 samples.

Results

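The genes described here encode the enzymes and transporters that bring glucose into muscle, break it down to lactate, and store or release it as glycogen. They were taken from a list of 33 symbols, and a gene counted as measured where the array annotation assigned at least 1 transcript cluster to that symbol alone, which held for 29 of the 33 among 19938 genes in all. Gpi1, Pfkfb1, Gapdh and Eno1 had no such cluster and were not analysed here. The tissue was gastrocnemius, a mixed calf muscle made mainly of fast fibres, from male mice aged 6 months that ate chow and were fasted for 5 h. The knockouts, Gcn5skm-/-, combined HSAcre Tg/0 with Gcn5 L2/L2, and the wild types, Gcn5skm+/+, combined HSAcre 0/0 with Gcn5 L2/L2, with 4 animals and 4 Affymetrix arrays per genotype. Both genotypes therefore carried the floxed Gcn5 allele, and only the knockouts carried Cre, which the human skeletal actin promoter drives in muscle fibres, so that other cells of the tissue keep Gcn5 and an effect of Cre itself cannot be told apart from that of the deletion.

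Gcn5, the product of Kat2a, is an acetyltransferase that acetylates histones and other proteins, among them the coactivator PGC-1alpha. Kat2a measured 5.81, 5.84, 5.79 and 5.73 on the log2 scale in knockouts 1 to 4, against 6.50, 6.46, 6.45 and 6.43 in wild types 1 to 4. Every knockout lay below every wild type, with a difference of -0.66 (SE 0.08, limma adjusted p = 0.0319). This call was lost without any 1 of the 4 knockouts or without wild type 3 or 4, where the adjusted p reached up to 0.137. Wild type 2 stood somewhat apart from the other arrays, with a mean correlation to them of 0.977 against 0.981 to 0.987 elsewhere. The fast-fibre marker list averaged 11.66 to 11.90 in knockouts and 11.82 to 11.90 in wild types, and Myh4, the myosin heavy chain of the fastest fibres, lay between 12.18 and 12.29 on all 8 arrays. The slow-fibre list ranged far more widely, between 5.55 and 9.11 in knockouts and between 6.50 and 8.45 in wild types.

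In a muscle fibre, glucose enters through the transporter GLUT4, is trapped by hexokinase and then runs either into glycogen or down glycolysis to pyruvate and lactate. Glycogen phosphorylase, switched on by phosphorylase kinase, returns stored glucose to the same route during contraction. Fast glycolytic fibres are known for high glycogenolytic and glycolytic capacity with the muscle-type lactate dehydrogenase, and oxidative fibres for more hexokinase and the heart-type lactate dehydrogenase.

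Many of these genes gave signals near the top of the array's range. The highest value of any gene was 12.98, and 22 of the 19938 genes averaged over 12. Aldoa, Eno3, Ldha and Pygm were 4 of those 22. A mean over 11 was reached by 7 of the 29 genes (also Pfkm, Tpi1 and Pkm), compared with 82 of all genes, and 13 of the 29 lay in the top 1% of genes by mean. Over the 8 arrays these 7 genes spanned only 0.107 to 0.366 log2 units, and their within-genotype SD had a median of 0.0653, compared with 0.167 for the other 22 members. All genes with a mean over 11 had a median within-genotype SD of 0.0735, though single genes at that level varied more, such as Myh1, a fast-fibre myosin gene that spanned 1.17 log2 units. Whether signals are compressed at this level, which would make true differences of these 7 genes look smaller, was not tested. Levels are given on each gene's own scale and do not rank the genes by transcript number.

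**Figure D1:**
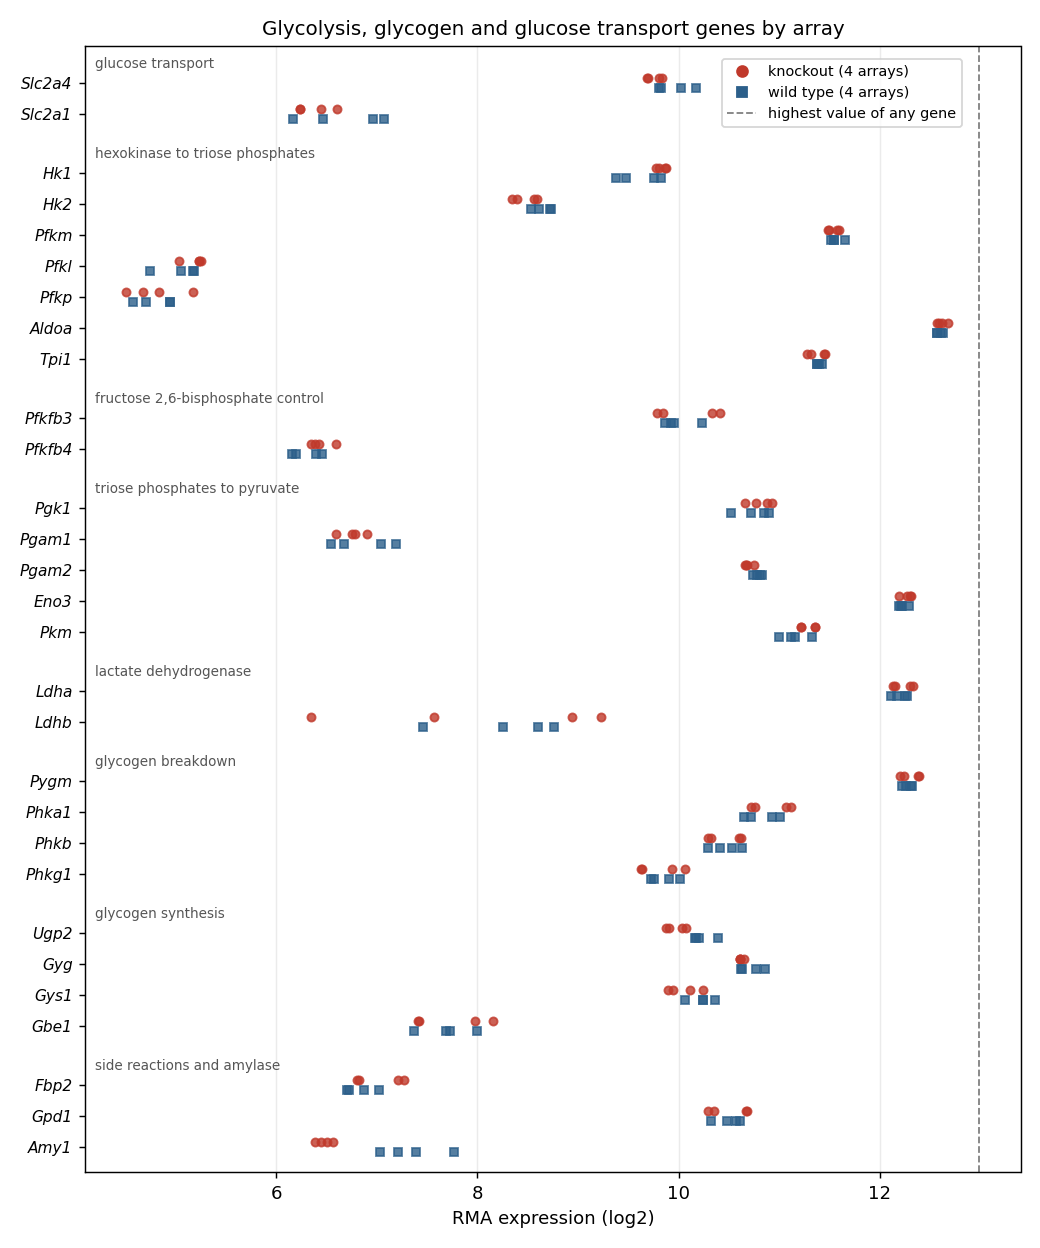
RMA expression on a log2 axis of the 29 measured genes, ordered by step from glucose uptake to glycogen and side reactions, with 1 point per array (circles, 4 knockouts, in the upper row of each gene; squares, 4 wild types, in the lower row) and a dashed line at the highest value of any gene, 12.98. Amy1 and Ugp2 are the genes whose knockouts all lie below the wild types, Ldhb spreads most, and Aldoa, Eno3, Ldha and Pygm lie close to the dashed line.

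The comparison of genotypes asks whether transcripts of glucose use differ in fasted muscle between Gcn5skm-/- and Gcn5skm+/+ mice. With limma, 0 of the 29 genes reached an adjusted p under 0.05, and 0.015% of all genes did. At an unadjusted p under 0.05, 2 of the 29 (6.90%) passed, both lower in knockout, beside 5.73% of all genes in either direction, 3.39% lower and 2.34% higher. The groups did not overlap for the same 2 genes, Amy1 and Ugp2, beside 3.62% of all genes in either direction and 2.14% lower. Of the 29 differences 15 were above 0 and 14 below, with a median of 0.00156, compared with -0.01 over all genes. With 2 genes behind them, these shares are not set apart from those of all genes. Leaving out 1 array in turn moved 24 of the 29 differences by over 1.5 times in at least 1 case. A difference near 0 passes this ratio readily, and those of Pfkp, Phkb and Gpd1 did so whichever array was left out. The 5 that stayed within it were Amy1, Ugp2, Gys1, Hk2 and Pgam2. Because the samples were pieces of whole muscle, fewer cells of a type and less RNA per cell cannot be told apart in any of these values.

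**Figure D2:**
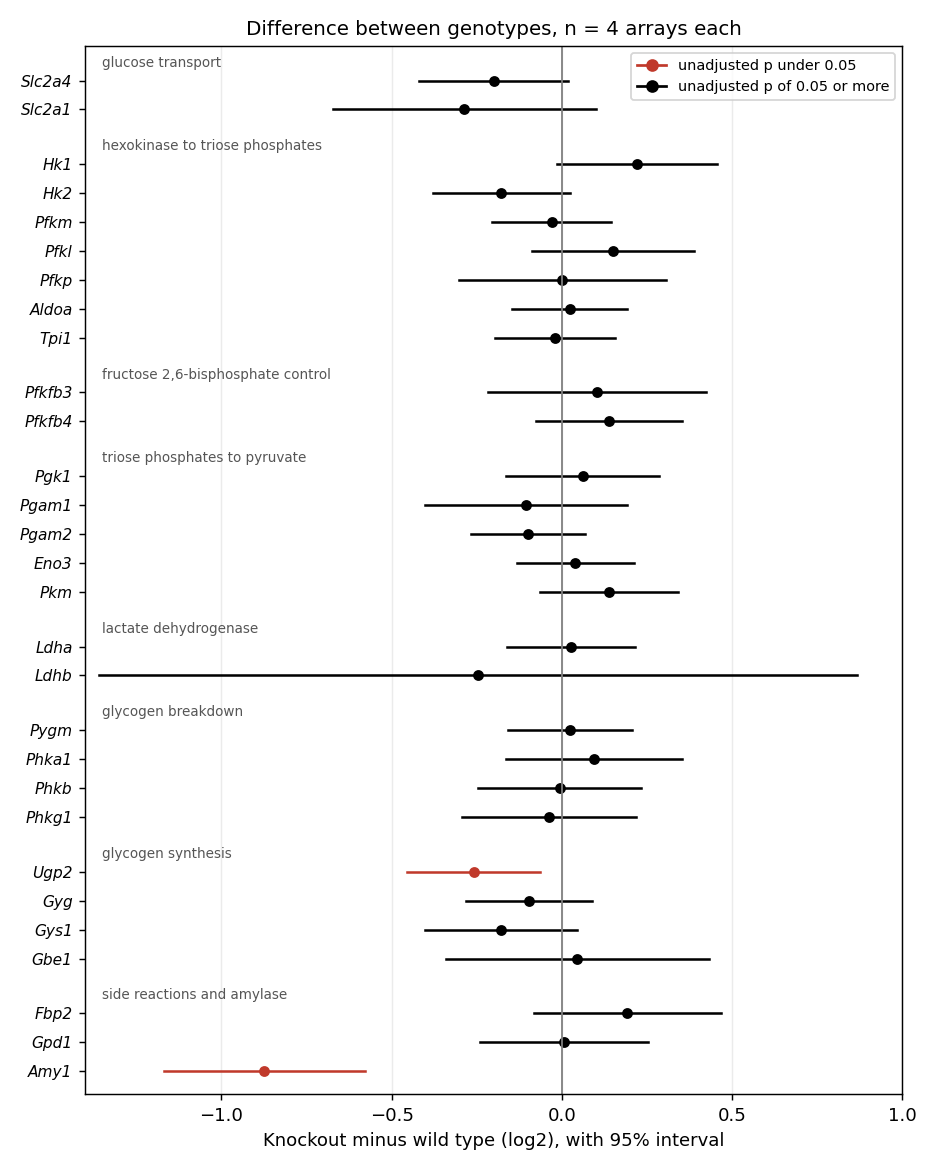
Knockout minus wild-type difference of each of the 29 genes in log2 units (points) with its 95% interval from limma (bars), 4 arrays per genotype, and genes at an unadjusted p under 0.05 in red. The intervals of Amy1 and Ugp2 lie below 0, all others cross 0, and the interval of Ldhb is the widest.

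Both glucose transporter genes had lower means in knockout, and neither passed. Slc2a4, which encodes the insulin-responsive transporter GLUT4, measured 9.69, 9.81, 9.83 and 9.69 in knockouts 1 to 4, against 9.82, 10.02, 9.81 and 10.17 in wild types 1 to 4. The highest knockouts overlapped the lowest wild types, and the difference of -0.20 had a 95% interval from -0.42 to 0.02 (limma adjusted p = 0.869). Without wild type 4 it was -0.13. Slc2a1, which encodes the basal transporter GLUT1 and is also expressed in endothelium, averaged 6.38 ± 0.18 in knockouts and 6.67 ± 0.42 in wild types (SD, n = 4 each). Its difference of -0.29 had an interval from -0.67 to 0.10, and was -0.45 without wild type 2, -0.19 without wild type 3 and -0.15 without wild type 4. Wild types 3 and 4 held its highest values, 6.96 and 7.07, and the endothelial marker list was also highest among wild types there (7.43 and 7.47), though its highest value of all was 7.54 in knockout 2. The part of endothelial cells in the Slc2a1 values was not tested.

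The hexokinase genes went in opposite directions by similar amounts. Hk1, the hexokinase found in most tissues, measured 9.81, 9.87, 9.88 and 9.78 in knockouts 1 to 4, against 9.83, 9.48, 9.76 and 9.38 in wild types 1 to 4. The knockouts were tightly grouped and wild types 2, 3 and 4 lay below all of them, while wild type 1 lay inside their range. The difference of 0.22 (95% interval -0.01 to 0.46) did not pass (limma adjusted p = 0.869), was 0.14 without wild type 4, and a second, dimmer Hk1 cluster differed by 0.03. Hk2, the insulin-regulated hexokinase of muscle, averaged 8.47 ± 0.13 in knockouts and 8.65 ± 0.10 in wild types, a difference of -0.18 (interval -0.38 to 0.03). Whether the Hk1 and Hk2 differences differ from each other was not tested.

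The phosphofructokinase step commits sugar to glycolysis. Pfkm, its muscle isoform, averaged 11.54 ± 0.06 in knockouts and 11.57 ± 0.06 in wild types. Pfkl, the liver isoform, differed by 0.15 and Pfkp, the platelet isoform, by 0.00156. The Pfkl difference was 0.05 without wild type 4, and that of Pfkp changed sign with the array left out. Both were dim, with means of 5.19 in knockouts and 5.04 in wild types for Pfkl and of 4.79 in each genotype for Pfkp. Aldoa (aldolase) and Tpi1 (triose phosphate isomerase), which yield the triose phosphates, differed by 0.02 and -0.02. Pfkfb3 and Pfkfb4 encode bifunctional enzymes that set the level of the main activator of phosphofructokinase. Pfkfb3 measured 10.33, 9.85, 9.79 and 10.41 in knockouts 1 to 4, against 9.87, 10.23, 9.92 and 9.95 in wild types 1 to 4. Knockouts 1 and 4 lay high and knockouts 2 and 3 low, so that the spread within a genotype exceeded the difference of 0.10 (interval -0.22 to 0.42). Pfkfb4 differed by 0.14 (interval -0.08 to 0.35), and by 0.09 without knockout 1 or wild type 3.

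Along the pay-off steps, 0 of the 5 measured genes differed by more than 0.139 log2 units. Pgk1, phosphoglycerate kinase, differed by 0.06, and its 3 clusters gave 0.06 to 0.08. The brain and general mutase gene Pgam1 differed by -0.10, but by 0.00422 without wild type 4 and by -0.21 without wild type 1. The muscle mutase gene Pgam2 differed by -0.10, and by -0.12 to -0.0853 without single arrays. Pgam2 averaged 10.69 ± 0.04 in knockouts and 10.79 ± 0.04 in wild types, and only knockout 4 at 10.75 reached the lowest wild type, wild type 4 at 10.74. Eno3, the muscle enolase, differed by 0.04. Pkm, pyruvate kinase, averaged 11.29 ± 0.08 in knockouts and 11.15 ± 0.14 in wild types, a difference of 0.14 (interval -0.07 to 0.34) that was 0.09 without wild type 4. Pgk1 and Pgam1 have near-identical copies in the genome, so their array values may include other transcripts.

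The glycogen breakdown genes had small differences between genotypes, and 0 of the 4 passed. Pygm, muscle glycogen phosphorylase, averaged 12.30 ± 0.09 in knockouts and 12.28 ± 0.05 in wild types. Phosphorylase kinase is built from several kinds of subunit, of which Phka1 encodes the muscle alpha chain, Phkb the beta chain and Phkg1 the muscle catalytic gamma chain. Their differences were 0.09, -0.01 and -0.04, with intervals that reached no further than 0.35 above and 0.29 below 0. All 3 were higher in knockouts 1 and 4 than in knockouts 2 and 3.

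Among the 4 glycogen synthesis genes 3 had lower means in knockout, and Ugp2 had the only separated groups. Ugp2, UDP-glucose pyrophosphorylase, makes the UDP-glucose from which glycogen is built. It measured 9.88, 10.04, 10.08 and 9.91 in knockouts 1 to 4, against 10.18, 10.39, 10.20 and 10.16 in wild types 1 to 4. Every knockout lay below every wild type, though the gap between knockout 3 and wild type 4 was small. The difference of -0.26 (SE 0.09, interval -0.46 to -0.06), or 0.836 of the wild-type level, was far from the threshold once adjusted for all genes (limma adjusted p = 0.845). Without wild type 2, the highest array for this gene, the difference was -0.21. Gys1, muscle glycogen synthase, measured 9.94, 10.25, 10.11 and 9.90 in knockouts 1 to 4, against 10.06, 10.24, 10.25 and 10.36 in wild types 1 to 4. The groups overlapped, and the difference was -0.18 (interval -0.40 to 0.04). Gbe1, the branching enzyme, differed by 0.05 (interval -0.34 to 0.43), and Gyg, the glycogenin primer on which a new glycogen particle starts, by -0.10, or -0.05 without wild type 2.

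Side reactions were measured by Fbp2, the muscle fructose bisphosphatase that runs against phosphofructokinase, and Gpd1, the cytosolic glycerol phosphate dehydrogenase that links glycolysis to glycerol and to the shuttle of reducing equivalents. Fbp2 measured 7.21, 6.82, 6.80 and 7.27 in knockouts 1 to 4, against 7.02, 6.88, 6.72 and 6.70 in wild types 1 to 4. Knockouts 1 and 4 were above every wild type and knockouts 2 and 3 were not. Fbp2 differed by 0.19 (interval -0.08 to 0.47), or 0.11 without knockout 4, and Gpd1 by 0.01 (interval -0.24 to 0.25).

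Amy1 had the largest difference of the 29 genes. It encodes the salivary-type alpha-amylase, an enzyme that cuts starch and glycogen and whose transcript is also found in liver and other tissues. It measured 6.39, 6.50, 6.57 and 6.45 in knockouts 1 to 4, against 7.03, 7.77, 7.38 and 7.21 in wild types 1 to 4. Every knockout lay below every wild type, and the knockouts were more tightly grouped (SD 0.08 in knockouts and 0.32 in wild types, n = 4 each). The difference was -0.87 (SE 0.14, interval -1.17 to -0.58), or 0.546 of the wild-type level. It ranked 10th of 19938 genes by p and just missed the 5% rate (limma adjusted p = 0.0568). It passed in 4 of 19 alternative fits, among which the adjusted p ranged between 0.0282 and 0.262. Without wild type 2 the difference was -0.73, without wild type 1 it was -0.98 and past the threshold, and with the slow-fibre level as a covariate it was -0.89.

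Macrophage markers were read in the same arrays. Of 11 markers 10 had a higher mean in knockout, beside 9038 of 19938 genes, and 0 of the 11 passed. Their mean level lay between 5.68 and 6.39 in knockouts and between 5.51 and 5.63 in wild types. The genotypes thus did not overlap in this mean, though narrowly (5.68 in knockout 2 and 5.63 in wild type 3). They overlapped in the means of the slow-fibre, fast-fibre, endothelial, adipocyte, erythroid, Schwann and fibro-adipogenic lists. More markers were lower than higher in knockout in the endothelial list (6 of 8) and the Schwann list (4 of 5), but not in the others. The part of the macrophage level in the Amy1, Ugp2 and Rnpc3 values was not tested.

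The values of the genes next to Amy1 were then read, a choice made after the Amy1 values were seen. The RefSeq gene table places Amy1 on chromosome 3, with the pancreatic amylase genes on one side and Rnpc3, which encodes a protein of the minor spliceosome, next to it on the other. Rnpc3 measured 6.28, 6.11, 6.12 and 6.18 in knockouts 1 to 4, against 6.54, 6.999, 6.54 and 6.72 in wild types 1 to 4. As for Amy1, every knockout lay below every wild type and wild type 2 was highest. Copy number and strain background at this locus were not tested, for Rnpc3 or for Amy1. The Rnpc3 difference of -0.53 (SE 0.11) ranked 31st by p and missed the threshold (limma adjusted p = 0.273). The next measured gene beyond Rnpc3 was Col11a1, a collagen chain gene, which differed by -0.04 with overlapping groups. On the other side, 6 clusters were assigned jointly to several pancreatic amylase genes and held only 3 distinct sets of values, all dim. Across the 6 clusters the values lay between 2.42 and 4.22 in knockouts and between 2.71 and 4.71 in wild types. Each cluster had a lower mean in knockout, with differences from -0.41 to -0.20. In the sets with differences of -0.41 and -0.39 every knockout lay below every wild type, though narrowly. The highest knockout and lowest wild type were 4.216 and 4.224 in the former, and 4.157 and 4.160 in the latter. In each genotype both sets were highest and lowest on the same arrays, so they cannot be read as separate observations. Of all genes 2.14% had every knockout below every wild type. In the set with a difference of -0.20 the genotypes overlapped. The differences of these clusters were given no test.

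**Figure D3:**
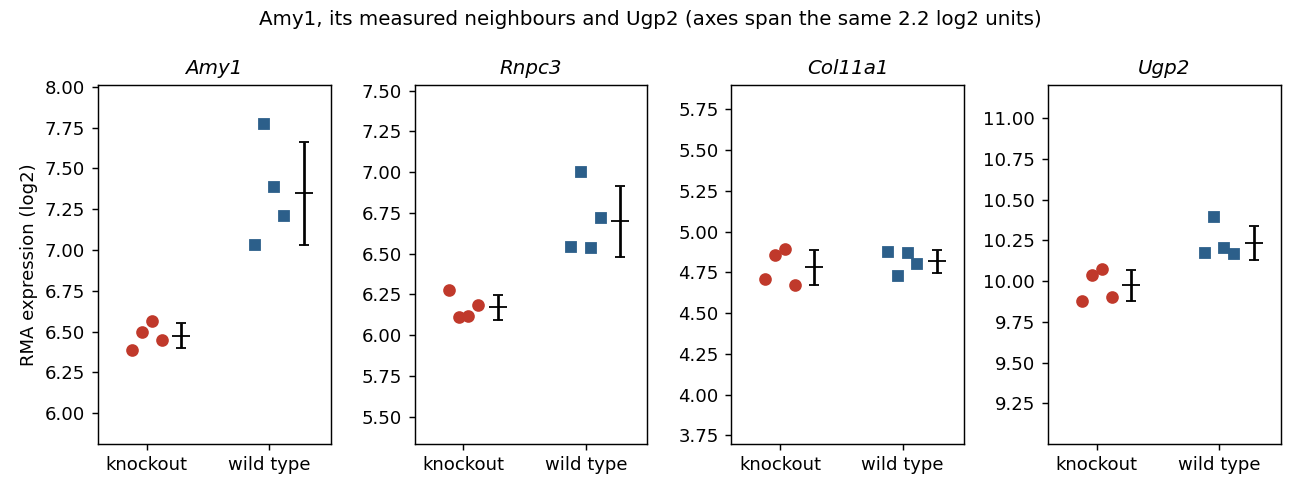
RMA expression (log2) of Amy1, of Rnpc3 and Col11a1 (the nearest measured genes on one side of it) and of Ugp2, with knockouts left (circles) and wild types right (squares), 1 point per array, and the mean with its SD in black (n = 4 each). The genotypes are apart for Amy1, Rnpc3 and Ugp2 and overlap for Col11a1.

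Mouse Amy1 has 2 annotated start sites that lie 2988 bases apart. The 250 bases before each are shown because Amy1 carries the largest difference, from RefSeq on GRCm38.p6, minus strand, 5′ to 3′, with capitals on a TATA box (TATAAA, both strands) or the core of the hypoxia response element (ACGTG, both strands).
Amy1 upstream start, chr3:113577751-113578000: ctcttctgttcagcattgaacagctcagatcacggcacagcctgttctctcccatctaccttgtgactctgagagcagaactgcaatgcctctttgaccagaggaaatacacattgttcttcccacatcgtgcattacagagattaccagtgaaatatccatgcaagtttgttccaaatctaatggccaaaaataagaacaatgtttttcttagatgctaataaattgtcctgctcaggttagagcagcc
Amy1 downstream start, chr3:113574763-113575012: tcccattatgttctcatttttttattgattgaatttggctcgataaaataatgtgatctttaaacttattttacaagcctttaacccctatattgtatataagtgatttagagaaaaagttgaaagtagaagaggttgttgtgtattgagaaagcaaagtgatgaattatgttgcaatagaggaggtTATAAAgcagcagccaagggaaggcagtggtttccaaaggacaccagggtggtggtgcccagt
The downstream window holds 1 TATAAA and the upstream one none, and neither holds ACGTG.

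Lactate dehydrogenase exchanges pyruvate and lactate, with Ldha encoding the muscle-type and Ldhb the heart-type chain. Ldha measured 12.31, 12.16, 12.13 and 12.33 in knockouts 1 to 4, against 12.27, 12.25, 12.12 and 12.17 in wild types 1 to 4. Ldhb measured 7.57, 8.94, 9.23 and 6.35 in knockouts 1 to 4, against 7.46, 8.25, 8.60 and 8.76 in wild types 1 to 4. Ldha was nearly flat, whereas Ldhb spanned 2.88 log2 units, the widest of the 29, with its extremes in knockouts 3 and 4. Its difference between genotypes of -0.25 (interval -1.36 to 0.87) was within that spread. It turned to 0.31 without knockout 4 and was -0.65 without knockout 3, so that no direction can be given.

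The 250 bases before the start of both genes are shown because their transcripts vary so unequally, again from RefSeq on GRCm38.p6 with capitals on ACGTG or TATAAA in either direction. Ldha is on the plus strand, where the more upstream of its 2 annotated starts is given, and Ldhb is on the minus strand with 1 annotated start.
Ldha, chr7:46845554-46845803: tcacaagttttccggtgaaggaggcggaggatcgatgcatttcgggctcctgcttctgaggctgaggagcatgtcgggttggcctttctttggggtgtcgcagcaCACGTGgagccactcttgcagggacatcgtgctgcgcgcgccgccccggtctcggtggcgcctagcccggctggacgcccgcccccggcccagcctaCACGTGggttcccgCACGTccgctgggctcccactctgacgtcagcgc
Ldhb, chr6:142507958-142508207: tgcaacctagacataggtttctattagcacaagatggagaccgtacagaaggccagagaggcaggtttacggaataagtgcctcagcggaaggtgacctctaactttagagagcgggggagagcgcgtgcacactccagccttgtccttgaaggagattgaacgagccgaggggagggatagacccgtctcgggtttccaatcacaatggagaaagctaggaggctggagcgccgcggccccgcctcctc
The Ldha window holds 5 matches to ACGTG, 4 of them from 2 copies of CACGTG, which reads the same on both strands, and the window before the other Ldha start holds 0, as does the Ldhb window. Of the 31 listed genes with a promoter window, 12 (38.7%) had ACGTG in the 250 bases before a start, among them Aldoa, Pgk1, Pkm, Ugp2 and Slc2a1, compared with 18.5% of 27025 genes. TATAAA was found for Amy1 and Pfkfb1, or 6.45%, compared with 14.3%. A gene counted if any of its starts had a match, and the 31 listed genes had 47 windows, compared with 32851 for the 27025 genes. By window, the shares were 31.9% against 16.6% for ACGTG and 4.26% against 12.4% for TATAAA. A match describes letters and is neither a bound site nor a cause.

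The next question was how the genes vary among arrays with the fibre composition of the muscle piece. A model of all genes with genotype and the mean of 9 slow-fibre genes as terms called 0 of the 29 genes, while 0.0752% of all genes passed, 15 in number and 9 of them from the slow-fibre list itself. At an unadjusted p under 0.05 it gave 3 of the 29 (10.3%), beside 5.12% of all genes. Those were Ldhb and Gbe1, with slopes of 0.66 and 0.19 log2 units per unit of slow-fibre level, and Fbp2 with -0.11. The Ldhb slope missed the threshold (limma adjusted p = 0.106) and passed in 4 of 20 alternatives, where the adjusted p ranged between 0.000969 and 0.715. Without wild type 3, which had Ldhb at 8.60 beside a slow-fibre mean of 6.66, the slope was 0.75 (limma adjusted p = 0.000969), and without wild type 2 it was 0.74 (0.0299).

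Wild type 3 also stood high for Myh2, the myosin heavy chain of fast oxidative fibres, and Myh2 was therefore tried as the fibre-type level after these values had been seen. Myh2 measured 10.12, 11.52, 11.46 and 9.03 in knockouts 1 to 4, against 10.49, 10.93, 11.38 and 11.29 in wild types 1 to 4. The order of the arrays was close to that of Ldhb. With genotype in the model, Ldhb had a slope of 1.14 log2 units per unit of Myh2 (SE 0.07, limma adjusted p = 8.59e-05), and Myh2 aside it ranked 1st among all genes, of which 0.291% were called. The slope lay between 1.08 and 1.21 when each array was left out in turn, with limma adjusted p values up to 0.0179. Because Myh2 was chosen for its likeness to Ldhb, this fit describes the 8 arrays and does not test the relation independently. Ldha had a slope of -0.09 on the same scale (SE 0.05).

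**Figure D4:**
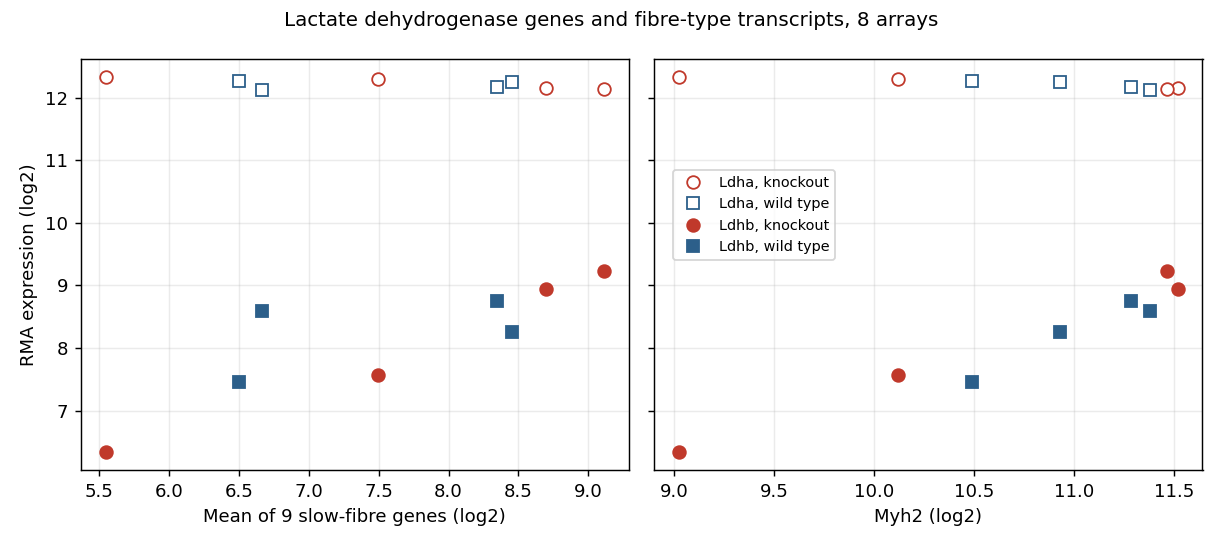
RMA expression (log2) of Ldha (open symbols) and Ldhb (filled symbols) in each of the 8 arrays against the mean of 9 slow-fibre genes (left) and against Myh2 (right), both in log2 units, with knockouts as circles and wild types as squares. Ldhb is lowest in knockout 4, which is also lowest on both axes, wild type 3 stands off the trend on the left but not on the right, and Ldha stays between 12.12 and 12.33.

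On the Myh2 level 1 of the 29 genes was called, Ldhb, and 10 (34.5%) had an unadjusted p under 0.05, beside 6.30% of all genes. The genes are not independent of each other, Myh2 was chosen after the values were seen, and this count is a description. Positive slopes belonged to Ldhb, Gbe1 (0.30), Gys1 (0.14) and Hk2 (0.12), that is, to the heart-type lactate dehydrogenase, 2 glycogen synthesis enzymes and the insulin-regulated hexokinase. Negative slopes belonged to Pfkfb3 (-0.23), Fbp2 (-0.22), Phkg1 (-0.19), Phka1 (-0.18), Gpd1 (-0.17) and Phkb (-0.15). The limma adjusted p values of the 9 genes other than Ldhb lay between 0.297 for Fbp2 and 0.762 for Hk2. All 3 phosphorylase kinase genes thus had negative slopes, and Pygm, whose product they activate, had a slope of -0.07 (SE 0.05) at the top of the array's range. Leaving out each array in turn gave between 7 and 11 members at an unadjusted p under 0.05, beside 4.13% to 8.95% of all genes. The 11 and the 8.95% came from the same fit, without wild type 2. All 10 slopes kept their sign in each of those 8 fits and with the slow-fibre list in place of Myh2. The 10 genes were picked on these same arrays, which those fits share. Myh2 itself rose with the slow-fibre level (slope 0.55, SE 0.11). The kept signs were therefore likely beforehand and give no independent support. Myh2 itself differed by -0.49 between genotypes with overlapping groups (limma adjusted p = 0.912). Amy1 and Ugp2 had slopes on Myh2 of 0.06 (SE 0.09) and 0.06 (SE 0.06).

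The phosphorylase kinase genes show the pattern in the values themselves. Phka1 measured 11.07, 10.72, 10.76 and 11.11 in knockouts 1 to 4, against 10.93, 11.004, 10.65 and 10.72 in wild types 1 to 4. Phkg1 measured 9.93, 9.63, 9.63 and 10.07 in knockouts 1 to 4, against 9.91, 10.02, 9.75 and 9.73 in wild types 1 to 4. Both were highest in knockouts 1 and 4 and wild types 1 and 2, the 4 arrays with the lowest Myh2. Gbe1 ran the other way in the knockouts, with 7.42, 8.16, 7.97 and 7.41 in knockouts 1 to 4, against 7.37, 7.995, 7.72 and 7.69 in wild types 1 to 4.

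**Figure D5:**
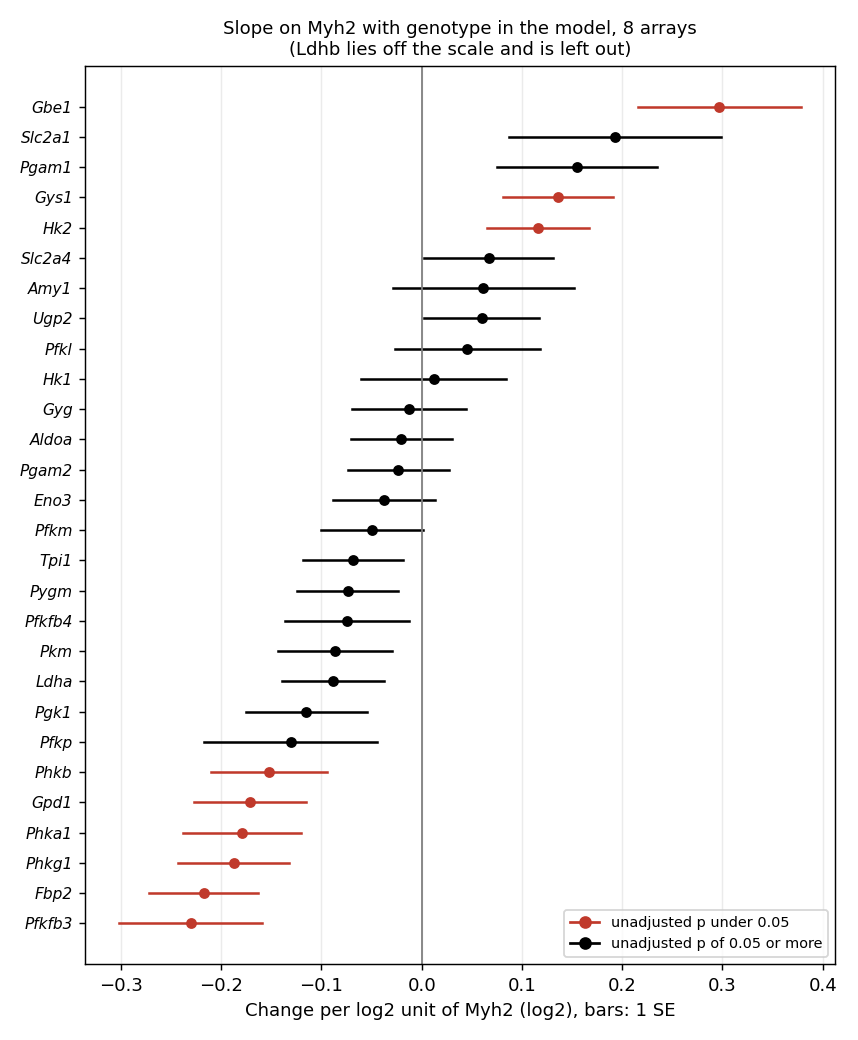
Change in log2 expression per log2 unit of Myh2 for 28 of the 29 genes, from limma with genotype in the model over 8 arrays (points; bars span 1 SE to each side; red, unadjusted p under 0.05). Ldhb, with a slope of 1.14, is left out for scale. Gbe1, Gys1 and Hk2 lie above 0, and the phosphorylase kinase genes, Fbp2, Gpd1 and Pfkfb3 lie below 0.

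A further list held 63 genes of glucose handling outside the 33, such as other transporters, lactate carriers, glycogen regulators and gluconeogenic enzymes, of which 57 were measured. With limma 0 of the 57 had an adjusted p under 0.05 in the comparison of genotypes. In knockout 36 (63.2%) were lower and 21 higher, beside 54.7% of all genes lower. The median difference was -0.05, compared with -0.01 over all genes. At an unadjusted p under 0.05 there were 6 (10.5%), 4 lower and 2 higher, beside 5.73% of all genes. Pcx, pyruvate carboxylase, which feeds pyruvate into oxaloacetate, measured 7.21, 7.06, 6.90 and 7.14 in knockouts 1 to 4, against 7.42, 7.56, 7.14 and 7.55 in wild types 1 to 4. Wild type 3 overlapped the knockouts, and the difference was -0.34 (SE 0.11, limma adjusted p = 0.802). Pfkfb2, a further bifunctional regulator of phosphofructokinase known from heart, differed by -0.35, G6pc3, a ubiquitous glucose 6-phosphatase subunit, by -0.23 and the testis lactate dehydrogenase gene Ldhc, near the bottom of the range, by -0.27. Higher in mean were Slc16a7, the monocarboxylate carrier MCT2, by 0.33 and Bpgm, bisphosphoglycerate mutase of red cells, by 0.28. Slc16a7 was dim, with means of 4.16 in knockouts and 3.82 in wild types, and its difference was 0.21 without wild type 4. That of Bpgm was 0.17 without knockout 4. Bpgm was highest in knockout 4 at 7.25. The 3 measured erythroid markers averaged 5.53 to 5.75 in knockouts and 5.42 to 5.72 in wild types, and their part was not tested.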

How the data were processed

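Gastrocnemius RNA of 8 mice was hybridised to 1 array per animal. The authors deposited log2 expression values for 35556 transcript clusters, already summarised by RMA. The submitters' processing notes name Expression Console, while its version, settings and build are not given in the sources used here. RMA makes the arrays' distributions alike, so a shift shared by most genes would not show. No pooling was recorded, and the labels call the arrays biological replicates.

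Groups came from the sample titles. Of 21789 clusters with 1 gene symbol, the cluster with the highest mean over 8 arrays stood for its gene, which left 19938 genes with no filter. A linear model per gene (limma 3.58.1, R 4.3.3, moderated by eBayes) gave p values that were adjusted by Benjamini-Hochberg across the 19938 genes and called under 0.05. Differences are knockout minus wild type, with 95% intervals from the same fit. Slopes came from the same model with a fibre-type level added. The steps were tested on simulated data. Promoter windows came from RefSeq (31 of 33 genes matched). The number of arrays limits the precision.

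The genes, lists and tests were chosen with earlier results of these data known. Every listed gene was named by rule, with Kat2a, the myosin genes and other pathway genes at an unadjusted p under 0.05; Rnpc3, Col11a1 and the Myh2 level were added after the values were seen. Same-numbered arrays of the 2 genotypes are different animals, and their deviations correlated at 0.0925, 0.127, 0.139 and -0.174 for numbers 1 to 4, so they were not treated as pairs. Tried as alternatives were other normalizations, filters on dim genes, averaging of clusters, array weights, a robust prior with an intensity trend, a block for replicate number, a slow-fibre covariate and omission of arrays. Figures were drawn with matplotlib 3.10.9.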

Additional observations from a re-analysis of the deposited data

Results flagged for a closer look

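Among 84 groups of 4 arrays checked for one array far from the other 3, 4 groups had one (4.76%), and chance gives about 1 in 20. Pfkl measured 5.04 in knockout 4, against 5.23 to 5.25 in the other knockouts. Gyg measured 10.65 in knockout 2, against 10.61 in the other knockouts, a gap of little size. Ugp2 measured 10.39 in wild type 2, against 10.16 to 10.20 in the other wild types, and its difference between genotypes was -0.21 without that array. Bpgm measured 6.36 in wild type 4, against 6.71 to 6.75 in the other wild types.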

How the results depend on the processing

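The directions of Amy1, Ugp2, Kat2a, Rnpc3 and the 6 named genes outside the list were the same in every alternative that could be fitted. Of the 29 differences, 16 kept their sign in every alternative and 13 changed it at least once, most often those near 0 (Phkb in 8, Pfkp in 7 and Gpd1 in 6 alternatives). Amy1 was the 1 member called without the dimmest 25% or 50% of genes or with an intensity trend and a robust prior; when arrays were left out singly, 0 to 1 members were called, the 1 without wild type 1. The count at an unadjusted p under 0.05 was 4 with the intensity trend and 2 to 4 without single arrays (4 without wild type 1 or 3). The share of all genes passing in those fits is not given here, so these counts have no background to be read against. The median difference of the members ranged between -0.0490 and 0.0374 without single arrays. For the slow-fibre slope 1 member, Ldhb, was called with median centring, with array weights or with Myh2 as the level, and 0 to 1 without single arrays (1 without wild type 2 or wild type 3). Of all genes 0.105% were called without wild type 2, 0.206% without wild type 3 and 0.291% on Myh2. That share is not given here for median centring and array weights. Col11a1 ranged between -0.0716 and 0.000792 without single arrays, reversed without knockout 4. With the replicate block 0 members and 0 of all genes were called, compared with 3 of all genes without it, and Amy1 kept its difference of -0.87 with an adjusted p of 0.113. In the comparison of genotypes all genes called numbered 11 and 13 after the filters on dim genes and 17 with the intensity trend. They numbered 5 without wild type 1, and 0 without any 1 knockout or without wild type 3 or 4. Of the other pathway genes 0 were called in each of the 19 alternatives. Whether the high signal of 7 members or the dim signal of Pfkl and Pfkp hid differences was not tested.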
